A study of Mus musculus with 15 samples.

Results

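Complement is a cascade of plasma and membrane proteins that marks targets for removal by phagocytes and recruits inflammatory cells. The classical pathway starts with the recognition molecule C1q, the lectin pathway with mannose-binding lectins and ficolins, and the alternative pathway runs on C3 turnover with factor B and factor D. The pathways meet at the cleavage of C3, and soluble and membrane-bound inhibitors hold them in check. Most circulating complement protein comes from the liver, and resident macrophages, fibroblasts and adipocytes make particular components locally. The values below concern 9 complement genes in mouse tibialis anterior muscle, taken by symbol from a table of 47643 gene symbols. They are the common component C3, the classical pathway genes C1qa, C1qb, C1qc and C4b, the alternative pathway genes Cfb and Cfd, the lectin pathway gene Fcna, and Serping1, which encodes the C1 inhibitor.

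The study asked how a cachexia-inducing melanoma and the drug lisinopril, which inhibits angiotensin-converting enzyme, alter muscle RNA. All 15 libraries came from female C57BL/6J mice labelled with an age of 7 weeks. The study's text places collection at day 49 after implantation of a melanoma xenograft or a mock injection, and the labels do not say at which point the age applies. The sampling protocol in the labels names another tumour model and time, and for the melanoma line and its species the sources used here give no name. Mice with melanoma and lisinopril gave 4 libraries. Mice with melanoma and mock treatment also gave 4 libraries. Mock-injected mice on lisinopril gave 3 libraries, and mock-injected, mock-treated control mice gave 4. The labels call the libraries biological replicates.

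The tissue label fitted the markers, since 6 muscle fibre genes summed to between 51900 and 105100 TPM (a level scaled for transcript length and to the same sum in each library) and 5 melanocyte genes to at most 0.392 TPM. The libraries control 2 and melanoma 2 stood apart from their groups, each with a mean correlation of 0.938 to its group, against at least 0.965 for the others. Control 2 held 23880 TPM of haemoglobin transcripts, while the other libraries held between 159 and 4197 TPM. It also held the B cell transcripts Cd79a at 20.0 TPM and Ms4a1 at 3.13 TPM, which reached at most 0.560 and 0.160 TPM elsewhere. Calls of the 9 genes that change without control 2 are given with and without it.

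The stretches around the starts of 4 of the genes, from 250 bases before to 50 bases after the RefSeq start, are shown because C3 and Fcna stood among the genes that differed with tumour, whereas C1qb and C1qc varied together from library to library. They were taken from RefSeq for build GRCm38.p6, where 5 of the 9 genes had an entry, and run 5′ to 3′ on the minus strand, with C3 at chr17:57228087-57228386, Fcna at chr2:25627925-25628224, C1qb at chr4:136886151-136886450 and C1qc at chr4:136892865-136893164. Capitals mark matches to any of 6 short motifs.
C3: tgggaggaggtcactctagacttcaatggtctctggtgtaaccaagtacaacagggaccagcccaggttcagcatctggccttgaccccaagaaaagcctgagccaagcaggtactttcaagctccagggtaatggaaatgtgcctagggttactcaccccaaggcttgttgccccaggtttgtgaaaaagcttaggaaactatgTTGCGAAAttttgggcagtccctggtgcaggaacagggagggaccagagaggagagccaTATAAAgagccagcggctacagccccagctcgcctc
Fcna: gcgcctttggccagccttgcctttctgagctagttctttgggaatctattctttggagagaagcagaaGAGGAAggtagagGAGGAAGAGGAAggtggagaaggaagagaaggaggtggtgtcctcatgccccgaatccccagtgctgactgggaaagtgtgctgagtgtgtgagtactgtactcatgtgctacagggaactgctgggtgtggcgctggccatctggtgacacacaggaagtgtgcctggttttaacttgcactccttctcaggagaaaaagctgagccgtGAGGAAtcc
C1qb: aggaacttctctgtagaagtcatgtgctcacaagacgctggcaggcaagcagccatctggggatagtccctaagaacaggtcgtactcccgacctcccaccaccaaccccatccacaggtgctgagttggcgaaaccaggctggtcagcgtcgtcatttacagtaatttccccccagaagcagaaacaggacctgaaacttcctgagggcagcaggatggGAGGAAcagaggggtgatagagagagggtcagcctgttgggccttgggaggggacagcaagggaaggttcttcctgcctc
C1qc: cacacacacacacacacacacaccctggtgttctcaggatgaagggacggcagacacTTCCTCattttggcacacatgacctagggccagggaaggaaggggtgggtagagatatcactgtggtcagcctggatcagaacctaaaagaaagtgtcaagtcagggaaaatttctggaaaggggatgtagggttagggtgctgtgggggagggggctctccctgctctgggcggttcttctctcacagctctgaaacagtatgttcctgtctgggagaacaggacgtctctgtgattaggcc

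The motifs were searched on both strands of each stretch. The letters were TTGCNNAA for C/EBP, TTCNNNGAA for STAT, GGG and TTTCC with any 2 bases between them for NF-kB, GAAA and GAAA with any 2 bases between them for an interferon-stimulated response element, GAGGAA for PU.1 and TATAAA for a TATA box. Positions count the first transcribed base by RefSeq as 0. The C3 stretch held the C/EBP letters as TTGCGAAA from base -45 to base -38. It also held TATAAA from base 14 to base 19, which is downstream of the start. The Fcna stretch held GAGGAA 4 times, with first bases at -182, -169, -163 and 41. The C1qb stretch held it once, from -30 to -25, and the C1qc stretch held it once on the opposite strand, from -193 to -188. Of 32851 mouse promoters of the same length, 10.8% held the C/EBP letters, 8.30% the STAT letters, 1.63% the NF-kB letters, 3.44% the interferon element, 28.3% GAGGAA and 13.6% TATAAA. The fifth stretch, that of Cfd, held none of the 6. These letter matches are descriptions and no binding was measured.

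The genes lie on 4 chromosomes in build GRCm38, as annotated by GENCODE. For Fcna, C1qb and C1qc the GENCODE start differs from the RefSeq start used above. C1qb (chr4:136880129-136886187), C1qc (chr4:136889804-136893065) and C1qa (chr4:136895917-136898803) are neighbours on the minus strand of chromosome 4. C4b (chr17:34728380-34743882) and Cfb (chr17:34856374-34862518) share a stretch of chromosome 17 with the related genes C4a and C2, and C3 (chr17:57203970-57228136) lies farther along it, all on the minus strand. Fcna (chr2:25624666-25628030) and Serping1 (chr2:84765387-84775444) are on the minus strand of chromosome 2 and Cfd (chr10:79890853-79892655) is on the plus strand of chromosome 10.

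C3 and C4b were higher in tumour-bearing muscle with and without the drug, with no library of the mice with melanoma overlapping any library of the mice without it. C3 is the protein whose cleavage all complement pathways share. It was measured at 70.9, 129, 44.6 and 58.2 TPM in the melanoma plus lisinopril libraries, 115, 70.6, 113 and 70.9 TPM in the melanoma libraries, 10.6, 5.96 and 13.0 TPM in the lisinopril libraries and 9.46, 20.0, 5.48 and 12.2 TPM in the control libraries. The lowest tumour-bearing library, at 44.6 TPM, was above the highest tumour-free library, control 2 at 20.0 TPM. Mean C3 was 75.7 ± 37.2 TPM in melanoma plus lisinopril (SD, n = 4), 92.4 ± 25.1 TPM in melanoma (n = 4), 9.85 ± 3.59 TPM in lisinopril (n = 3) and 11.8 ± 6.14 TPM in control muscle (n = 4). The log2 fold change of TPM + 1 was 2.77 ± 0.40 for melanoma plus lisinopril against lisinopril (SE; limma with Benjamini-Hochberg adjustment over 11923 genes, adjusted p = 0.00765). It was 2.95 ± 0.37 for melanoma against control (adjusted p = 0.00541). With lisinopril 1 left out, the drug arm's adjusted p for C3 was 0.0588, no longer below the threshold of 0.05.

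C4b encodes the C4 protein, whose cleavage product joins that of C2 in the classical and lectin pathway convertase. Its level was 16.6, 26.5, 6.79 and 15.7 TPM in the melanoma plus lisinopril libraries, 20.4, 23.6, 24.6 and 16.7 TPM in the melanoma libraries, 0.432, 1.03 and 0.853 TPM in the lisinopril libraries and 2.31, 4.97, 0.670 and 1.20 TPM in the control libraries. The lowest tumour-bearing library, melanoma plus lisinopril 3, was above the highest tumour-free library, control 2. Mean TPM stood at a ratio of 21.2 for melanoma plus lisinopril over lisinopril and of 9.32 for melanoma over control, and the log2 fold changes of TPM + 1 were 3.17 ± 0.41 and 2.92 ± 0.38 (SE; limma adjusted p = 0.00436 and 0.00577). The C4b call held in 15 of 15 fits with 1 library left out, in both drug arms. C4a, a close relative of C4b on the same chromosome, was listed at no more than 1.16 TPM in any library, and how reads shared between the 2 genes were counted is not given in the sources used here.

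**Figure D1:**
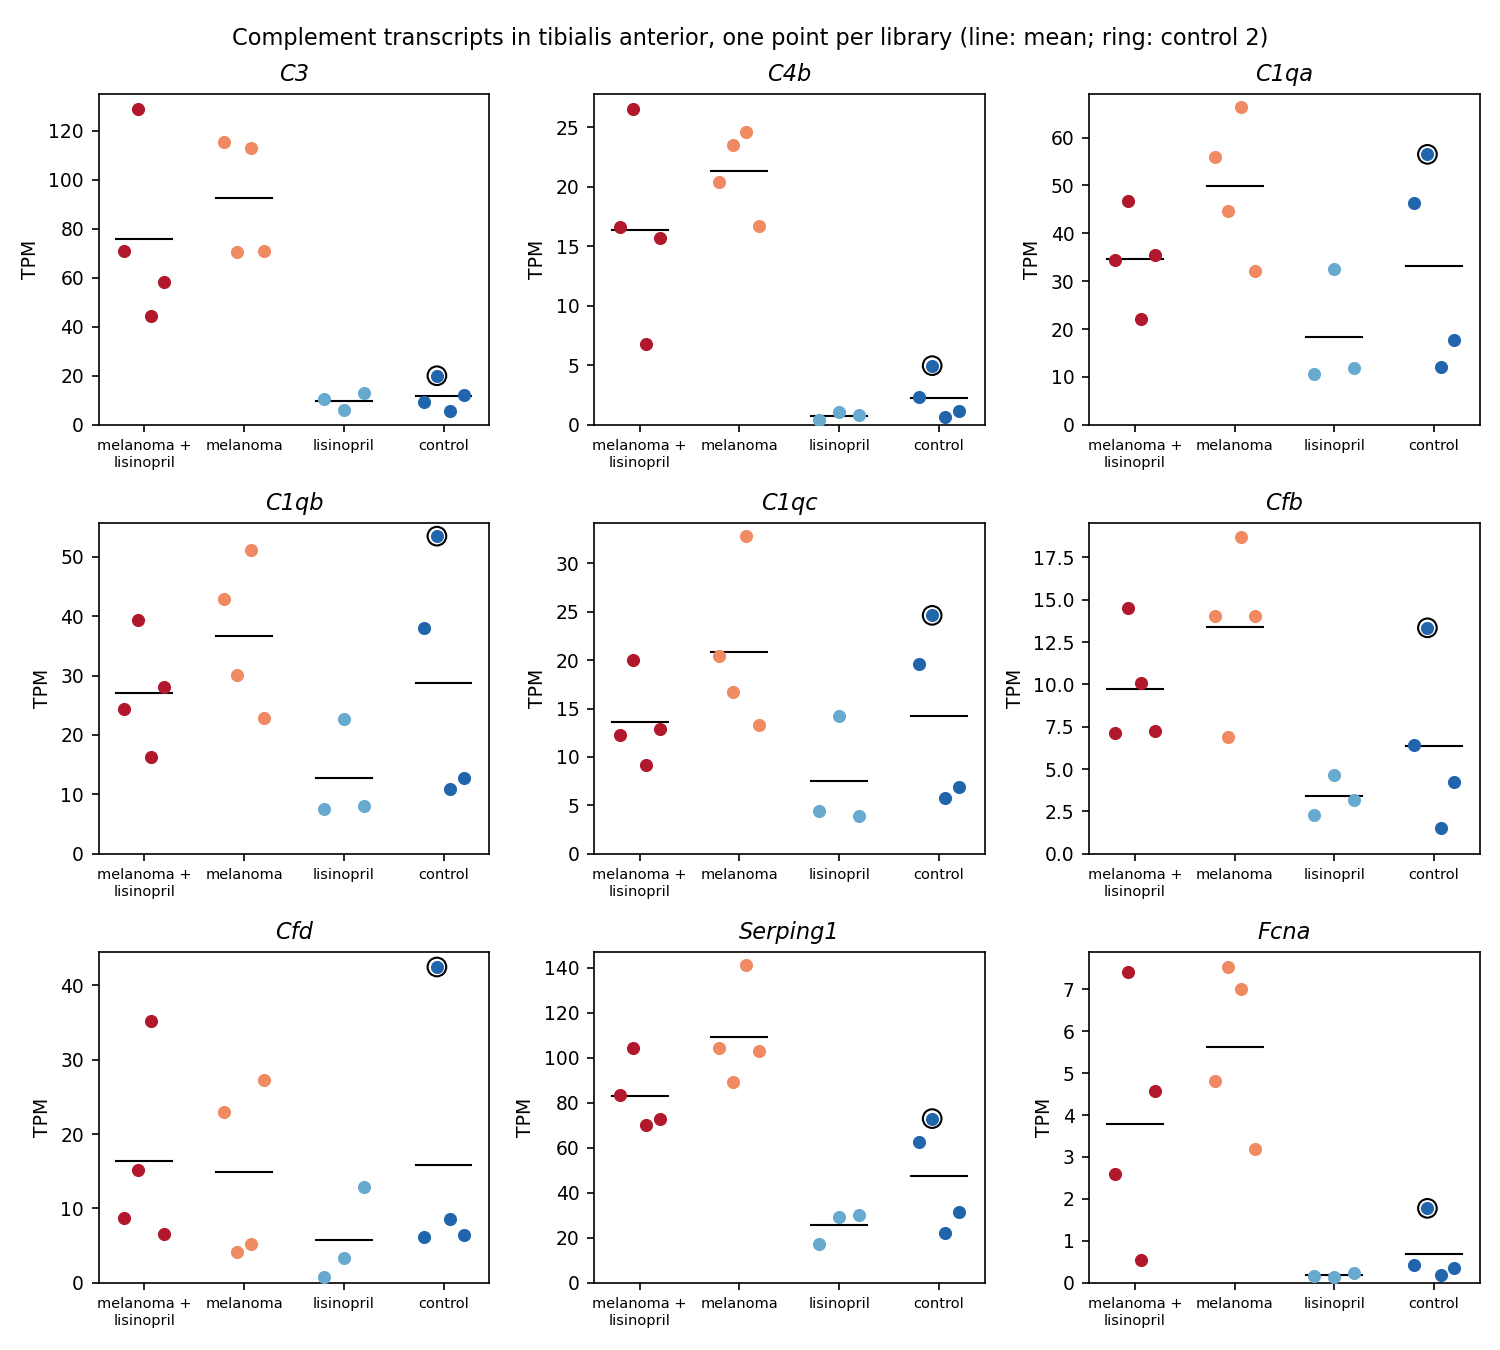
Level of each of the 9 complement genes in TPM (vertical axis, linear) in every library of the 4 groups (horizontal axis), with the group mean as a line and control 2 ringed. C3 and C4b show no overlap between the 8 tumour-bearing and the 7 tumour-free libraries, while the C1q genes and Cfd overlap throughout.

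Of the 9 genes, 3 rose in melanoma against control (C3, C4b and Fcna), where 0.461% of all genes tested rose and 0.646% passed in either direction. Likewise 3 rose in melanoma plus lisinopril against lisinopril (C3, C4b and Serping1), where 1.34% of all genes rose and 1.48% passed in either direction. The average of these 2 tumour effects, which uses all 15 libraries, passed for 5 genes (C3, C4b, Cfb, Serping1 and Fcna), where 14.5% of all genes rose, 3.45% fell and 18.0% passed in either direction. None of the 9 genes fell in any of these comparisons. The median log2 fold change of the 9 genes was 1.59 in melanoma plus lisinopril against lisinopril, 1.16 in melanoma against control and 1.22 on average, beside medians of 0.23, 0.10 and 0.17 over all genes tested. All 9 passed the filter of at least 1 TPM in at least 3 libraries, Fcna only through the tumour-bearing ones. Of all genes tested, 1.49% had every tumour-bearing library above every tumour-free library.

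The 2 tumour effects lay close together for C3 and C4b and farther apart for Cfd. The difference between the drug arms was -0.19 ± 0.54 for C3, 0.25 ± 0.56 for C4b and 1.59 ± 1.12 for Cfd (log2, SE), and none passed (0% of all genes passed). At an unadjusted p under 0.05, 0 of the 9 genes and 151 of all genes tested differed between arms.

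**Figure D2:**
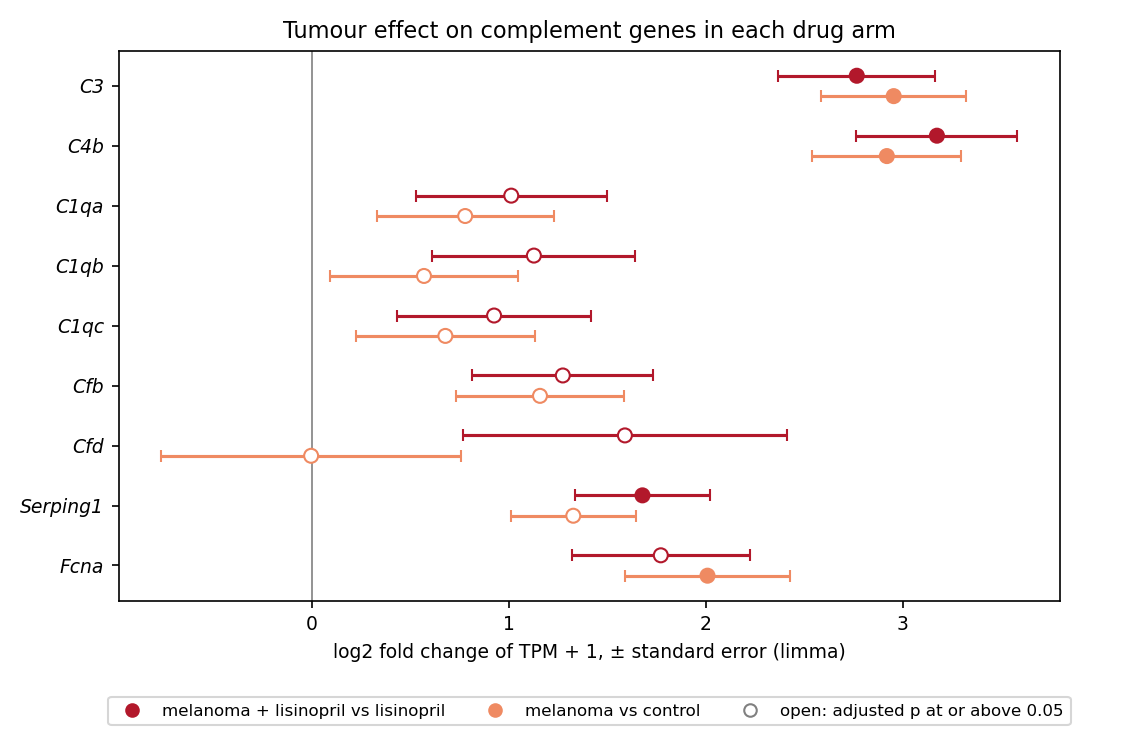
Log2 fold change of TPM + 1 (horizontal axis) with its standard error for each complement gene (vertical axis), for melanoma plus lisinopril against lisinopril (upper, dark red) and melanoma against control (lower, orange). Filled points have a limma adjusted p below 0.05; C3 and C4b are filled in both arms, Serping1 in the drug arm and Fcna in the arm without drug.

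Serping1, the C1 inhibitor that blocks the proteases C1r, C1s and MASP, had the highest mean of the 9 genes in each of the 4 groups. Its level was 83.7, 104, 70.3 and 72.9 TPM in the melanoma plus lisinopril libraries, 104, 89.1, 141 and 103 TPM in the melanoma libraries, 17.2, 29.4 and 30.3 TPM in the lisinopril libraries and 62.8, 73.0, 22.0 and 31.6 TPM in the control libraries. Within each drug arm the tumour-bearing libraries lay above the tumour-free ones, as for 29.0% of all genes in melanoma plus lisinopril against lisinopril and 5.33% in melanoma against control. Across the arms 6 of 8 tumour-bearing libraries lay above every tumour-free one. Without control 2 all 8 did, and the share of all genes that separate so in that setting was not measured. The log2 fold change was 1.68 ± 0.34 in melanoma plus lisinopril against lisinopril (limma adjusted p = 0.0320) and 1.33 ± 0.32 in melanoma against control (adjusted p = 0.0671). Without control 2 it was 1.58 in melanoma against control (adjusted p = 0.0131). On average over the arms Serping1 rose by 1.50 ± 0.23 on the log2 scale (adjusted p = 0.00189). The drug-arm call held in 9 of 15 fits with 1 library left out and ended without lisinopril 1, 2 or 3 or without melanoma plus lisinopril 1, 2 or 4, with an adjusted p of up to 0.179.

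Fcna encodes ficolin A, a lectin pathway recognition molecule made in the mouse largely by macrophages of liver and spleen, and had the lowest mean of the 9 genes in every group. It was at 2.60, 7.41, 0.550 and 4.57 TPM in the melanoma plus lisinopril libraries, 4.81, 7.53, 7.00 and 3.19 TPM in the melanoma libraries, 0.163, 0.138 and 0.234 TPM in the lisinopril libraries and 0.417, 1.77, 0.185 and 0.359 TPM in the control libraries. Fcna had passed the filter only through tumour-bearing libraries. Within each drug arm the tumour-bearing libraries lay above the tumour-free ones. The same held for 29.0% of all genes in melanoma plus lisinopril against lisinopril and 5.33% in melanoma against control. Across the arms 7 of 8 tumour-bearing libraries lay above every tumour-free one. The exception, melanoma plus lisinopril 3, was below control 2 and above the other tumour-free libraries. Fcna rose by 2.01 ± 0.42 on the log2 scale in melanoma against control (limma adjusted p = 0.0442) and by 1.89 ± 0.31 on average over the arms (adjusted p = 0.00256). In melanoma plus lisinopril against lisinopril the estimate was 1.77 ± 0.45 (adjusted p = 0.0600). Fcna passed there without control 2 (1.77, adjusted p = 0.0305), without melanoma 2 (1.77, adjusted p = 0.0397) and without melanoma plus lisinopril 3 (2.23, adjusted p = 0.00697). With the replicate number as a block over all 4 groups, an alternative to the reported unpaired fit, the estimate was 1.81 (limma adjusted p = 0.0370).
Fcna's call in melanoma against control was kept in 5 of 15 fits with 1 library left out. It ended without control 1, 3 or 4, without lisinopril 1, 2 or 3, without melanoma 1, 2 or 3 and without melanoma plus lisinopril 1, with an adjusted p of up to 0.134.

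Cfb encodes factor B, which supplies the protease of the alternative pathway C3 convertase. Its level was 7.11, 14.5, 10.1 and 7.25 TPM in the melanoma plus lisinopril libraries, 14.0, 6.89, 18.7 and 14.1 TPM in the melanoma libraries, 2.31, 4.66 and 3.20 TPM in the lisinopril libraries and 6.42, 13.3, 1.54 and 4.23 TPM in the control libraries. Control 2 was the highest tumour-free library, and 4 of 8 tumour-bearing libraries lay above it. Without control 2 all 8 lay above the tumour-free ones. The share of all genes that separate so without control 2 was not measured. On average Cfb rose by 1.22 ± 0.31 (log2, limma adjusted p = 0.0214). The separate estimates were 1.27 ± 0.46 in melanoma plus lisinopril against lisinopril (adjusted p = 0.143) and 1.16 ± 0.43 in melanoma against control (adjusted p = 0.187). Without control 2, Cfb in melanoma against control was 1.57 (adjusted p = 0.0317), and without lisinopril 1 the average was 1.12 (adjusted p = 0.0634).

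Cfd encodes factor D, the protease that cleaves factor B, and is also known as adipsin because adipocytes make it in large amounts. It was at 8.70, 15.1, 35.2 and 6.55 TPM in the melanoma plus lisinopril libraries, 22.9, 4.17, 5.26 and 27.2 TPM in the melanoma libraries, 0.807, 3.34 and 12.9 TPM in the lisinopril libraries and 6.21, 42.5, 8.51 and 6.41 TPM in the control libraries. High and low libraries occurred in each group with tumour, and the highest of all 15 was control 2. The log2 fold change was 1.59 ± 0.82 in melanoma plus lisinopril against lisinopril (limma adjusted p = 0.248), 0.00 ± 0.76 in melanoma against control (adjusted p = 0.998) and 0.79 ± 0.56 on average (adjusted p = 0.305). Without control 2 the average was 1.10 (adjusted p = 0.108).

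The libraries high in Cfd were those high in Adipoq, which encodes the adipocyte hormone adiponectin. Adipoq was at 0.791, 1.18, 3.40 and 0.452 TPM in the melanoma plus lisinopril libraries, 1.94, 0.584, 0.613 and 3.38 TPM in the melanoma libraries, 0.189, 0.303 and 1.34 TPM in the lisinopril libraries and 0.267, 4.32, 1.24 and 0.565 TPM in the control libraries. The highest library in each group for Cfd was also the highest for Adipoq. Of all genes tested, 14.5% rose in the average tumour effect. Across the 8 adipocyte markers, all in the table and 6 of them tested, 1 (Plin4) rose there. Their summed level was 1609 to 3283 TPM in melanoma plus lisinopril, 1383 to 2592 TPM in melanoma, 2559 to 3539 TPM in lisinopril and 2670 to 4048 TPM in control libraries, most of it from genes that muscle also expresses. Lep was listed at 0 in melanoma plus lisinopril 1 and 4, melanoma 1 and 2, lisinopril 1 and 2 and control 1, and Plin1 in melanoma 2. The part of adipocyte RNA in the Cfd values was not tested.

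C1qa, C1qb and C1qc encode the chains of C1q, which binds antibody on targets and starts the classical pathway, and tissue macrophages are its main source. C1qa was at 34.4, 46.7, 22.0 and 35.5 TPM in the melanoma plus lisinopril libraries, 55.9, 44.7, 66.4 and 32.2 TPM in the melanoma libraries, 10.6, 32.4 and 11.9 TPM in the lisinopril libraries and 46.2, 56.5, 12.2 and 17.8 TPM in the control libraries. The groups overlapped, and controls 1 and 2 reached the level of the tumour-bearing libraries. C1qb was at 24.3, 39.3, 16.3 and 28.1 TPM in the melanoma plus lisinopril libraries, 42.9, 30.0, 51.2 and 22.8 TPM in the melanoma libraries, 7.53, 22.8 and 8.08 TPM in the lisinopril libraries and 38.0, 53.5, 10.8 and 12.8 TPM in the control libraries. C1qc was at 12.2, 20.1, 9.13 and 12.9 TPM in the melanoma plus lisinopril libraries, 20.4, 16.7, 32.8 and 13.3 TPM in the melanoma libraries, 4.40, 14.3 and 3.93 TPM in the lisinopril libraries and 19.6, 24.6, 5.74 and 6.85 TPM in the control libraries. Both overlapped between groups like C1qa, with controls 1 and 2 and lisinopril 2 high among the tumour-free libraries. Averaged over the arms, the log2 fold changes were 0.90 ± 0.33 for C1qa, 0.85 ± 0.35 for C1qb and 0.80 ± 0.34 for C1qc (SE; limma adjusted p = 0.0670, 0.0933 and 0.0961). None of the chains passed in either arm alone, with estimates of 0.93 to 1.13 in melanoma plus lisinopril against lisinopril and 0.57 to 0.78 in melanoma against control.
Without control 2 the average was 1.06 for C1qa, 1.04 for C1qb and 0.97 for C1qc and each passed (limma adjusted p = 0.0211, 0.0257 and 0.0330), which brought the genes that rose on average to 8 of 9. Under that setting 28.2% of all genes tested rose, against 14.5% with all libraries. C1qa alone also passed without lisinopril 2 (1.14, adjusted p = 0.0471) and with the replicate block (0.96, adjusted p = 0.0390).

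The chains kept near-constant proportions. C1qa stood at 1.06 to 1.49 times C1qb and at 2.03 to 3.04 times C1qc in TPM over the 15 libraries. After each group's mean was removed, the log2 levels of the chains correlated with each other at a Pearson r of 0.978 to 0.991 over 15 libraries, a description in which the points share their library and its scaling. By the same measure C4b followed the chains at 0.774 to 0.830, Cfb and Serping1 followed each other at 0.877, C4b and Fcna at 0.877 and C3 and C4b at 0.719. Cfd lay between -0.183 and 0.497 with the other 8 genes.

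Macrophage markers, with the 12 listed all tested, rose in part. In the average tumour effect 5 rose, where 14.5% of all genes rose, and 7 did not pass. Among the 12, Mertk would have missed the filter on tumour-free libraries alone. Cd163, a haemoglobin scavenger receptor of resident macrophages, rose by 1.92, Lyve1 by 1.59, Folr2 by 1.06 and the mannose receptor Mrc1 by 1.02 on the log2 scale, whereas Adgre1 stood at -0.09 and Csf1r at 0.58 without passing. The summed level of the 12 markers was 119 to 247 TPM in melanoma plus lisinopril, 169 to 375 TPM in melanoma, 70.0 to 186 TPM in lisinopril and 90.7 to 492 TPM in control libraries, with 249 TPM as the control maximum once control 2 was left out. Lyz2 took a large part of these sums, with means of 89.7, 123.8, 75.8 and 156.5 TPM in these groups, in that order. In control 2 Lyz2 was at 340 TPM. The summed C1q chains per summed macrophage marker came to 0.318 to 0.643 in melanoma plus lisinopril, 0.361 to 0.671 in melanoma, 0.322 to 0.374 in lisinopril and 0.274 to 0.417 in control libraries, which overlap. In bulk muscle a different number of cells of a type and a different amount of RNA per cell cannot be told apart, and the part of macrophage number in the C1q values was not tested.

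C3 relative to C1q separated the libraries by tumour, as C3 alone did. The share of all genes whose ratio to C1q separates them was not measured. The ratio of C3 to the summed C1q chains was 0.761 to 1.22 in melanoma plus lisinopril, 0.751 to 1.04 in melanoma, 0.0858 to 0.545 in lisinopril and 0.0911 to 0.327 in control libraries. A ratio within a library shows unequal change of its parts. The order of the 9 genes by mean TPM differed accordingly, with C3 second behind Serping1 in melanoma plus lisinopril and melanoma, the fourth in lisinopril and the sixth in control muscle, where C1qa was second. Neighbours in these orders often overlapped between libraries, as Serping1 and C3 did in both tumour-bearing groups.

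**Figure D3:**
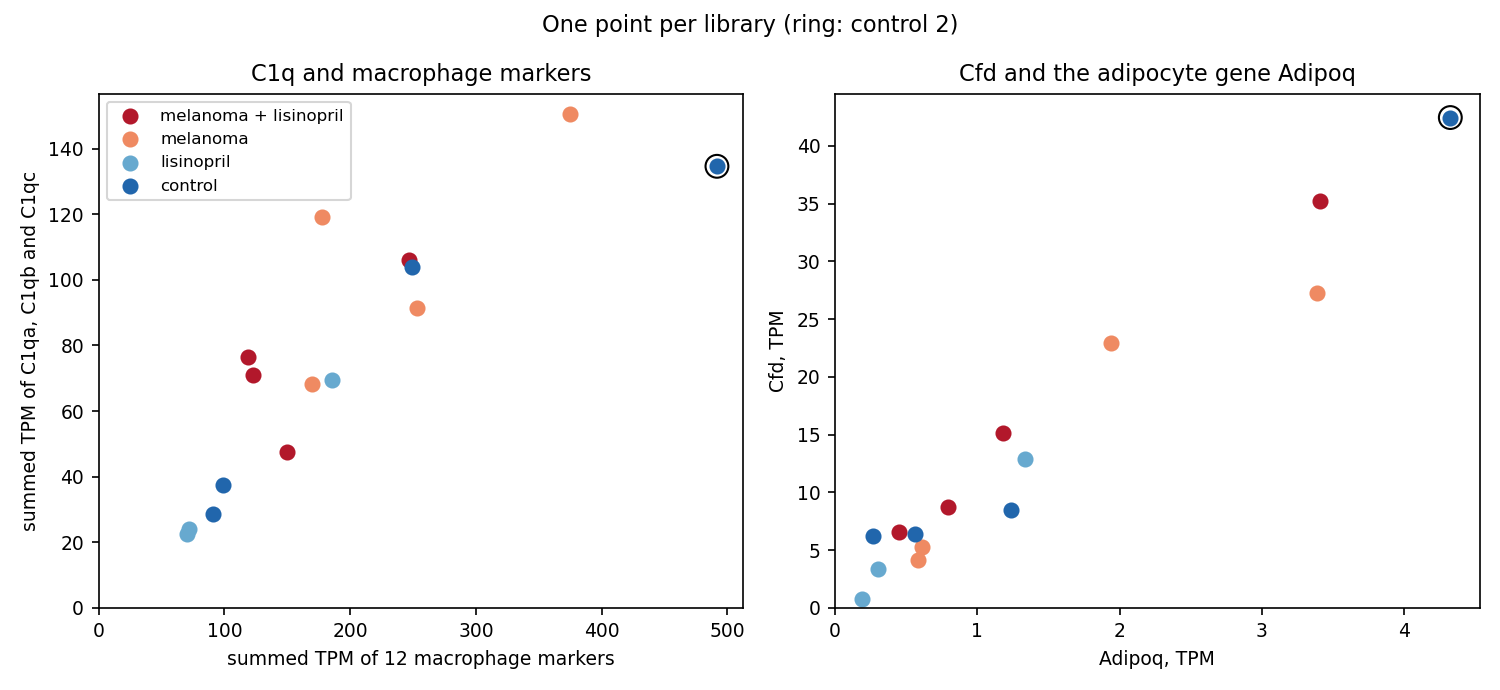
Summed TPM of C1qa, C1qb and C1qc against the summed TPM of 12 macrophage markers (left) and Cfd against Adipoq in TPM (right), with 1 point for each of the 15 libraries, coloured by group, and control 2 ringed. Control 2 is the highest library for the macrophage markers at 492 TPM, for Cfd at 42.5 TPM and for Adipoq at 4.32 TPM.

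Markers of some other cells moved with tumour too. All 6 neutrophil markers rose on average, where 14.5% of all genes rose, and none of the 6 passed in either drug arm alone. Mmp9 and Cxcr2 would have missed the filter on tumour-free libraries alone. The sums of the 6 were 32.4 to 183 TPM in melanoma plus lisinopril, 105 to 349 TPM in melanoma, 10.5 to 58.7 TPM in lisinopril and 21.6 to 97.1 TPM in control libraries. Of the 8 fibroblast markers 2 rose (Dcn by 0.87 and Pdgfra by 0.67) and 6 did not pass, with Col3a1 at -1.58, Col1a1 at -0.96, Col1a2 at -0.68, Lum at -0.61, Dpt at -0.13 and Pi16 at 0.68, and the median was -0.37. Their sums were 356 to 565 TPM in melanoma plus lisinopril, 511 to 842 TPM in melanoma, 201 to 604 TPM in lisinopril and 353 to 1135 TPM in control libraries. Of 7 hepatocyte markers 2 were tested and none passed, and their sums stayed at 4.94 to 10.7 TPM in melanoma plus lisinopril, 6.04 to 9.58 TPM in melanoma, 3.56 to 7.17 TPM in lisinopril and 2.96 to 31.1 TPM in control libraries. Other markers fell on average, the immunoglobulin gene Ighm by 3.58, the endothelial gene Kdr by 0.85 and the tendon gene Tnmd by 0.92 on the log2 scale (limma adjusted p = 0.000597, 0.00674 and 0.0254). Kdr was 1 of 6 endothelial markers tested, of which the other 5 did not pass and the median was 0.23. Tnmd was 1 of 3 tendon markers tested, of which the other 2 did not pass. It would have missed the filter on tumour-bearing libraries alone. Ighm was 1 of 2 lymphocyte markers tested, and the other did not pass. The part of these cell types in the complement values was not tested.

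Lisinopril without tumour and lisinopril with tumour changed none of the 9 genes past the threshold, and 0% of all genes passed in either comparison. In melanoma plus lisinopril against melanoma the estimates lay between -0.67 for Fcna and 0.24 for Cfd with a median of -0.43, beside -0.06 over all genes (limma adjusted p of at least 0.99). There 0 of the 9 genes and 189 of all genes tested had an unadjusted p under 0.05. In lisinopril against control they lay between -1.35 for Cfd and -0.17 for C3 with a median of -0.74, beside -0.18 over all genes. Without control 2 that median was -0.41, beside -0.11 over all genes, and C3 stood at 0.11. With control 2 included, 1 of the 9 genes had an unadjusted p under 0.05 in lisinopril against control, Serping1 at -0.75 ± 0.34 (limma adjusted p = 0.714). The same held for 461 of all genes tested. The comparisons of melanoma with control and of lisinopril with control share the control libraries, and those that contain melanoma plus lisinopril share that group.

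The rest of the pathway was described from a list of 53 complement genes ordered by role, of which 51 were in the table and 31 were tested. Besides the 9 genes above, 22 were tested, of which 8 rose, 1 fell and 13 did not pass in the average tumour effect, with a median log2 fold change of 0.28. Of all genes tested, 14.5% rose and 3.45% fell there, with a median of 0.17, which also applies to the counts by role below. In melanoma plus lisinopril against lisinopril 1 of the 22 rose, Vsig4, where 1.34% of all genes rose. In melanoma against control 2 rose, C7 and Vsig4, where 0.461% of all genes rose. C7 and Vsig4 passed the filter only through tumour-bearing libraries. Masp2 reached 1 TPM in 10 of 15 libraries, all 8 tumour-bearing ones among them, and would have missed the filter on tumour-free libraries alone.

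Of the 3 soluble regulators tested, out of 7 listed, 1 passed in melanoma plus lisinopril against lisinopril (Serping1) and none in melanoma against control. On average all 3 rose. Besides Serping1 these were Clu, which encodes the chaperone clusterin that binds terminal complexes (1.08 ± 0.21, limma adjusted p = 0.00674) and Vtn, which encodes vitronectin (0.68 ± 0.15, adjusted p = 0.00991). Among the 5 membrane regulators tested, which guard host cells, none passed on average, with estimates of 0.08 for Cd59a, 0.10 for Cd59b, 0.15 for Cr1l, 0.30 for Cd46 and -0.15 for Cd55.

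In the classical pathway the proteases of the C1 complex rose on average, C1ra by 1.17 ± 0.28 (limma adjusted p = 0.0146) and C1s1 by 1.05 ± 0.26 (adjusted p = 0.0182), so that with C4b 3 of 8 tested genes rose. C2 stood at 0.39 and C1rb at 0.21 without passing. In the lectin pathway 2 of 3 rose, Fcna and the protease Masp2 (0.43 ± 0.13, limma adjusted p = 0.0377), while Masp1 stood at -0.29 without passing. Neither Fcna nor Masp2 met the filter on tumour-free libraries alone. In the alternative pathway 2 of 4 rose, C3 and Cfb, while Cfp, which encodes the stabiliser properdin, stood at 0.27 without passing.

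In the terminal pathway, which builds the membrane attack complex, C7 rose by 1.32 ± 0.18 (limma adjusted p = 0.00111) and C8g fell by 0.48 ± 0.16 (adjusted p = 0.0454). C7 was at 1.97, 2.11, 0.620 and 1.84 TPM in the melanoma plus lisinopril libraries, 3.16, 4.52, 2.60 and 1.64 TPM in the melanoma libraries, 0.138, 0.0983 and 0.311 TPM in the lisinopril libraries and 0.151, 0.807, 0.0940 and 0.424 TPM in the control libraries. The other terminal genes Hc, C6, C8a, C8b and C9 stayed below the filter, C6 at 0.0832 to 1.03 TPM in tumour-bearing libraries and at most 0.0729 TPM in tumour-free ones. Of the receptors 2 of 6 rose, Vsig4, a macrophage receptor for C3 fragments (0.98 ± 0.14, adjusted p = 0.00111), and C5ar1, the receptor for C5a (0.97 ± 0.26, adjusted p = 0.0263). Vsig4 was at 0.878, 1.59, 0.453 and 1.20 TPM in the melanoma plus lisinopril libraries, 1.23, 2.11, 0.871 and 0.986 TPM in the melanoma libraries, 0.0251, 0.0769 and 0.0812 TPM in the lisinopril libraries and 0.0552, 0.113, 0.0980 and 0.0830 TPM in the control libraries. At this low level, all 8 tumour-bearing libraries exceeded the 7 tumour-free ones, as for 1.49% of all genes tested. C3ar1 (0.18), Itgb2 (0.17), Itgax (-0.41) and Cd93 (0.45) did not pass.
Also below the filter were C4a, Mbl1, Mbl2, Fcnb, Colec10, Colec11, Cfi, C4bp, Cpn1, Cpn2, Cd55b, Csmd1, Susd4, C5ar2 and Cr2. C1s2 and Itgam were not analysed here.

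**Figure D4:**
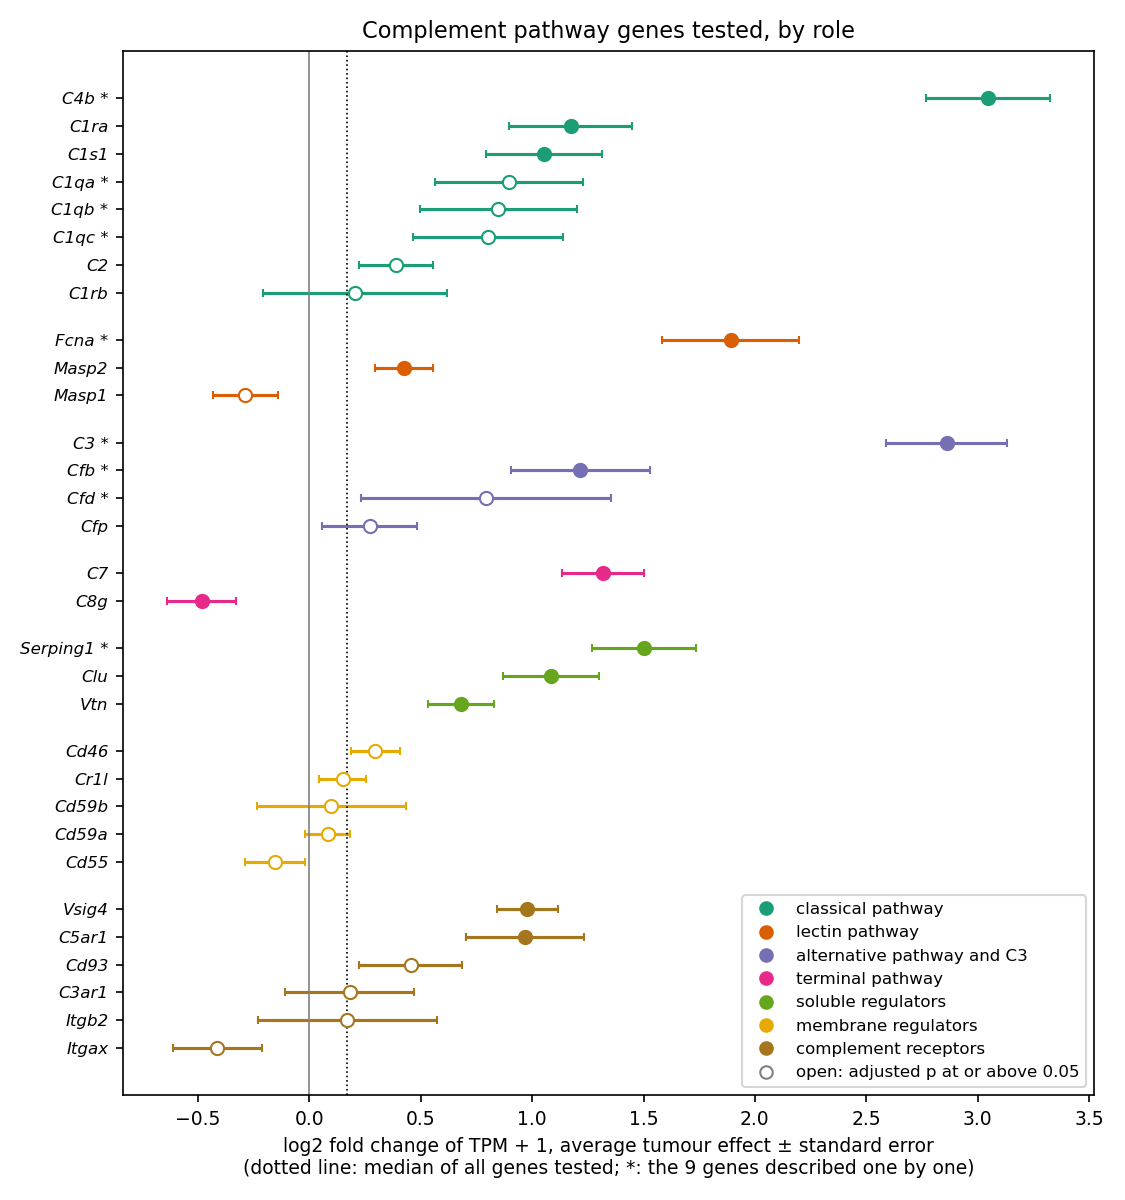
Log2 fold change of TPM + 1 in the average tumour effect with its standard error (horizontal axis) for the 31 complement genes tested (vertical axis), grouped and coloured by role, with filled points for a limma adjusted p below 0.05 and a dotted line at the median of all genes, 0.17. All 3 soluble regulators tested are filled and none of the 5 membrane regulators tested is, where 14.5% of all genes rose.

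The average tumour effect depended on how each library was scaled for genes at large and little for the 9 genes. As deposited, 80.8% of the genes that passed rose, whereas 46.7% did after median-ratio rescaling, 50.0% after quantile normalization and 59.7% without the mitochondrial genome. The all-gene median of 0.17 then stood at -0.00394, 0.000729 and 0.0559. The same 5 of the 9 genes rose under each of these scalings. Mitochondrial transcripts took 28.5% to 43.5% of TPM in melanoma plus lisinopril, 33.1% to 46.9% in melanoma, 42.6% to 46.3% in lisinopril and 40.8% to 52.8% in control libraries.

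**Figure D5:**
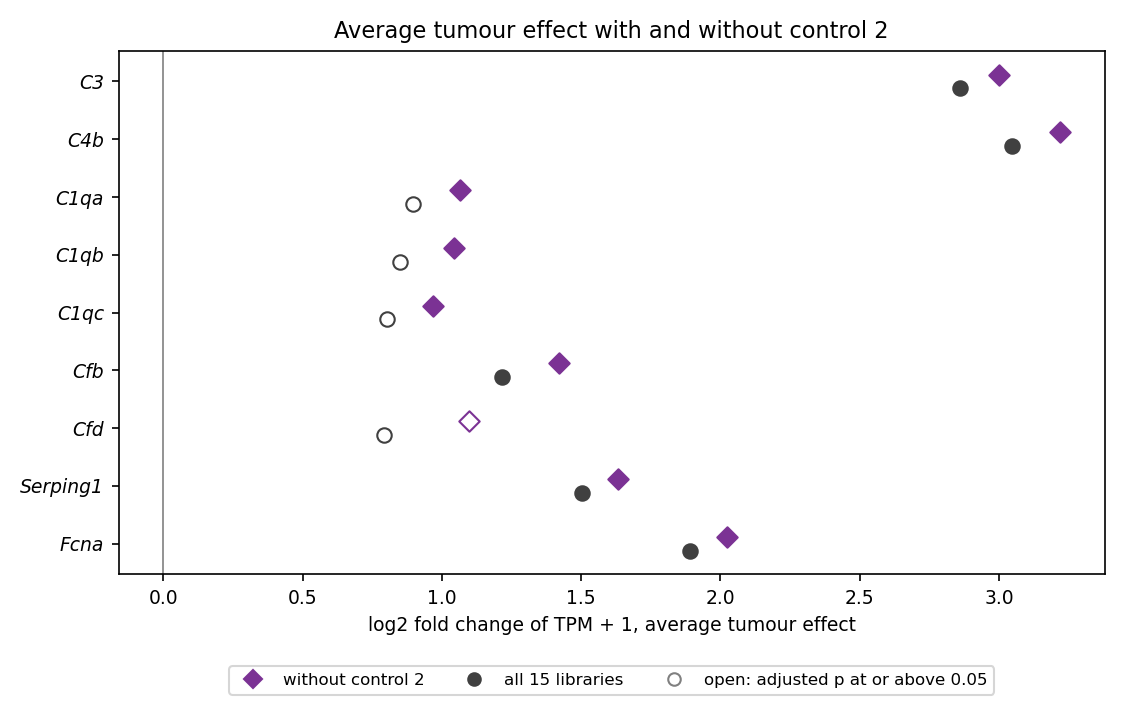
Log2 fold change of TPM + 1 in the average tumour effect (horizontal axis) for each of the 9 complement genes (vertical axis), without control 2 (diamonds, above) and with all 15 libraries (circles, below), filled where the limma adjusted p is below 0.05. Without control 2 the C1q chains are filled as well, and Cfd is open at 1.10.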

How the data were processed

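RNA of tibialis anterior muscle was sequenced after TruSeq stranded mRNA library preparation on an Illumina NovaSeq instrument, per the labels. The authors deposited a table of TPM values for 47643 symbols, made with mouse build mm10, as the submitters' processing notes say. Aligner, counter and annotation were not given in the sources used here. Every deposited TPM column summed to 1000000, so depth is unknown and no counting interval was given. In all, 21659 symbols were above 0 in any library, and the 11923 that reached 1 TPM in 3 or more of 15 libraries were kept. Values were taken as log2(TPM + 1), which understates changes of low genes, and entered into limma 3.58.1 (R 4.3.3, 4 group means, 11 residual and 3.80 prior degrees of freedom, eBayes with trend, two-sided tests). The Benjamini-Hochberg adjustment of p-values ran over the kept genes within each of 6 contrasts, with 0.05 as threshold. The average tumour effect is the mean of the melanoma plus lisinopril minus lisinopril and melanoma minus control differences. Errors are standard errors for log2 fold changes and standard deviations for TPM. The procedure was tested on simulated data. Summaries, promoter matches and figures used Python 3.11.15 with matplotlib 3.10.9, numpy 2.4.6 and pandas 2.3.3.

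The 9 genes, the pathway and marker lists and the tests were chosen with earlier results of these data known. The 9 genes were named whatever their result, and other pathway genes where they passed a tumour comparison, missed the filter, or stood in a role described in full. Alternatives were another pseudocount, no filter or a stricter one, other scalings, no trend, only the groups compared, a replicate block, quality weights and left-out libraries. Deviations from the group means of libraries with the same replicate number correlated at 0.129, 0.136 and 0.195 between melanoma plus lisinopril and lisinopril. In each of the other comparisons at least 1 such correlation lay below 0.1, with a range from -0.153 to 0.359. The labels do not say what the replicate numbers mark. The reported fit did not use them, and the replicate block was an alternative fitted over all 4 groups. The pathway and lymphocyte lists are given without 1 gene each, which is not reported here.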

Additional observations from a re-analysis of the deposited data

Results flagged for a closer look

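In control 2, Cfd was at 42.5 TPM while the other controls lay between 6.21 and 8.51 TPM, so that this 1 library was separated from the rest of its group by nearly the whole range. Fcna in control 2, at 1.77 TPM against 0.185 to 0.417 TPM in the other controls, stood apart in the same way. Of 27 sets of 4 libraries examined by Dixon's ratio of gap to range in TPM (9 genes in 3 groups), these 2 were singled out, both for control 2. Chance singles out about 1 in 20 where values are normally distributed, which was not checked for these. Sets from the same libraries are also not independent. The lisinopril group, with 3 libraries, was not examined.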

How the results depend on the processing

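The number of the 9 genes that rose in melanoma plus lisinopril against lisinopril was 3, and 5 with sample quality weights or without control 2 and melanoma 2. In melanoma against control it was 3, and 5 with either of these settings. On average it was 5, and 8 with either. Of all genes, the share that rose was then 16.6% with quality weights and 14.4% without both libraries in the drug arm (1.34% as reported), 9.84% and 1.67% in melanoma against control (0.461%) and 30.5% and 26.1% on average (14.5%). With 1 library left out, the numbers ranged from 1 to 4 in the drug arm (1 without lisinopril 1), from 2 to 5 in melanoma against control (5 without control 2) and from 4 to 8 on average (8 without control 2). The replicate block gave 4, 3 and 6 genes, adding Fcna in the drug arm and C1qa on average (0.96, adjusted p = 0.0390), and changed no other call. In both drug comparisons and the interaction, 0 of the 9 genes passed under every alternative run. Fcna's call in melanoma against control ended with no filter (adjusted p = 0.0955) and with only the groups compared (0.0731), and Serping1's in the drug arm with no filter (0.0862) and quantile normalization (0.0527). Fcna could not be tested under the stricter filter. Of the values of single genes under alternatives, 41 changed sign, none of them of a called estimate. In melanoma against control, Cfd was 0.51 with quality weights, 1.02 without control 2 and melanoma 2, and -0.41 to 0.61 with 1 library left out. In lisinopril against control, C3 was 0.041 with quantile normalization, 0.024 with median-ratio rescaling, 0.11 without both libraries and -0.46 to 0.12 with 1 left out. In melanoma plus lisinopril against melanoma, Cfd was -0.17 without both and -0.20 to 0.65 with 1 left out. In the interaction, quality weights gave -0.21 for C4b, -0.42 for C1qa, -0.30 for C1qb, -0.56 for C1qc, -0.43 for Cfb and -0.12 for Serping1. Leaving out both libraries gave -0.039 for C4b, -0.14 for C1qa, -0.16 for C1qc and -0.56 for Cfb. Quantile normalization gave -0.082 for Cfb and a pseudocount of 0.1 gave 0.16 for Fcna. With 1 library left out the interaction ranged from -0.48 to 0.098 for C3, -0.090 to 0.60 for C4b, -0.10 to 0.72 for C1qa, -0.082 to 0.77 for C1qc, -0.29 to 0.54 for Cfb and -0.59 to 0.22 for Fcna. The median interaction of the 9 genes was 0.25, and -0.33 with quality weights, -0.14 without both and -0.09 without control 2. The cause of these shifts was not tested. The average and the interaction use all 4 groups, so no fit with only the groups compared exists for them. The smallest effect detectable with 3 or 4 libraries per group was not measured, and depth is unknown.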

Other observations

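After removal of group means, the genes outside the complement lists whose log2 levels followed C3 most closely over 15 libraries were Mmrn2 (Pearson r = 0.886), Ncoa6 (0.876), Tek (0.870), Dusp1 (0.860) and Daam1 (0.850). Over the 13 libraries without control 2 and melanoma 2 their r was 0.881, 0.899, 0.814, 0.821 and 0.807. Mmrn2 and Tek are known as endothelial genes. For the mean of C1qa, C1qb and C1qc the closest were Apoe (0.959), Fcgr2b (0.955), P2ry6 (0.947), Aldh3b1 (0.944) and Ms4a4a (0.939), with 0.954, 0.943, 0.951, 0.937 and 0.940 over 13 libraries. These were the highest of 11923 genes and are descriptions without a test, in which the points share their library and its scaling.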
